A study of Mus musculus with 4 samples.

Results

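Lipid-associated macrophage genes were taken here as 10 genes picked by symbol (Trem2, Cd36, Apoe, Lpl, Fabp5, Ctsd, Gpnmb, Cd9, Lgals3 and Spp1), and all 10 were found among the 32285 genes counted. Their unique molecular identifiers (UMIs) were followed in CD45+ cells sorted from livers of female C57BL/6 mice, with 1 single-cell 5′ library in each of 4 groups. Young WT mice were about 8 weeks old and untreated. The other 3 groups were 36 weeks old and went through a liver cancer regimen, 25 mg/kg diethylnitrosamine (DEN) by intraperitoneal injection at 14 days of age and, from weaning at 21 days, a choline-deficient diet with 60% fat (CDHFD). They were WT mice, miR-146a-/- mice, and double knockout mice lacking both miR-146a and Ccl5 (miR-146a-/- Ccl5-/-, called DKO). The number of mice behind a library was not given in the sources used here. Age, DEN and diet all differed between young WT and WT and cannot be told apart.

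Lists of 4 values give young WT first, then WT, then miR-146a-/-, then DKO. The libraries held 90756272, 103165826, 88706063 and 103147246 UMIs from 10985, 9120, 8393 and 10623 cells. After filtering, 10283, 8329, 7824 and 9850 cells remained, with medians of 6782, 8210, 7910 and 7558 UMIs. Ccl5, the deleted chemokine gene, stood at 6174, 12544, 12496 and 65.4 CPM (a gene's UMIs scaled to the same total of UMIs for each library or class) over all kept cells, lowest in the DKO library, whose mice lack it. miR-146a itself was not analysed here. With 1 library per group no test across animals was possible, and every interval given is a 95% interval that covers counting error only.

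Lipid-associated macrophages are a state that tissue macrophages and recruited monocytes take on in fatty tissue, fatty liver and atherosclerotic plaques. The receptor TREM2 senses lipids and lipoproteins and signals through the adaptor TYROBP, and cells in this state take up, bind, break down and re-export lipid through the products of genes such as Cd36, Fabp5, Lpl, Apoe and lysosomal genes. Kupffer cells are the resident macrophages of the liver, and miR-146a restrains inflammatory signalling in myeloid cells by pairing with the messages of adaptor proteins of that pathway.

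The mature sequence of miR-146a-5p, the microRNA deleted in the knockout groups, is shown because its seed is the part that pairs with target messages. It was taken from RefSeq (GRCm38.p6, chr11:43374435-43374456, minus strand), and the capitals mark the seed, bases 2 to 8.
miR-146a-5p: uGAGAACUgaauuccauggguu
The 7 bases complementary to the seed, AGTTCTC on the message strand, were searched for in the longest annotated 3′ untranslated region of 21027 genes and were present in 2343 of them (11.1%). Of the 10 genes, Fabp5 held them, starting at base 118 of 487. The 30 bases around the match (GRCm38, chr3:10016227-10016256, plus strand) are shown with the match in capitals, as the single match among the 10.
Fabp5 match: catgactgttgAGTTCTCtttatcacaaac
The match is a description of letters, and no pairing was measured.

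Cells were assigned to classes by marker genes, none of which was among the 10 genes. Macrophages (C1qa, C1qb, C1qc, Mertk, Vsig4, Cd5l, Clec4f and Marco) numbered 25, 57, 35 and 83 cells. Classical monocytes, the Ly6c2-high cells that enter tissue from blood, numbered 46, 192, 298 and 439. Patrolling monocytes, which crawl along vessel walls, numbered 105, 170, 777 and 1610. Macrophages were therefore the smallest of these classes, and single cells could weigh heavily in them. Droplets with markers of more than 1 branch were set aside as mixed, 714, 1444, 961 and 1212 of them.

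The macrophage class held different kinds of cells in the 4 libraries. Clec4f, a Kupffer cell lectin, stood at 508, 137, 0 and 11.7 CPM in macrophages, and Timd4, a receptor of resident macrophages for dying cells, at 92.0, 6.92, 13.2 and 18.2. Vsig4, a complement receptor of Kupffer cells, stood at 307, 62.2, 5.28 and 54.5 CPM, and Marco, a scavenger receptor, at 21.9, 20.7, 0 and 7.78. Clec4f, Vsig4 and Timd4 were thus highest in young WT, while Marco did not differ between young WT and WT beyond its intervals. Cd5l, a secreted protein of resident macrophages, stood at 526, 520.4, 7.91 and 327 CPM, low in miR-146a-/-. Ly6c2, a marker of classical monocytes, stood at 175, 259, 137 and 19.5 CPM in macrophages, lowest in DKO. Fcgr4, a receptor for antibody, ran the other way, at 78.9, 138, 322 and 734 CPM. C1qb, a complement subunit and a marker of the class, stood at 3176, 3503, 4096 and 4653 CPM. The part these differences in makeup had in the results was not tested.

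The monocyte classes differed in makeup too. In classical monocytes Ly6c2 stood at 2085, 896, 1174 and 761 CPM and Ccr2, the chemokine receptor for entry into tissue, at 771, 430, 647 and 498, both highest in young WT. In patrolling monocytes Ly6c2 stood at 308, 376, 126 and 76.1 CPM and Ccr2 at 257, 229, 107 and 109.9, lower in the knockout libraries. The whole classical list of 8 genes, all found, summed to 1168, 1873, 2006 and 1362 CPM there. Fcgr4 in patrolling monocytes stood at 132, 110.2, 247 and 629 CPM, Negr1 at 0, 1.84, 22.1 and 158.7, and C1qb at 132, 216, 132 and 271, each highest in DKO. Their part in the ratios was likewise not tested.

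**Figure D1:**
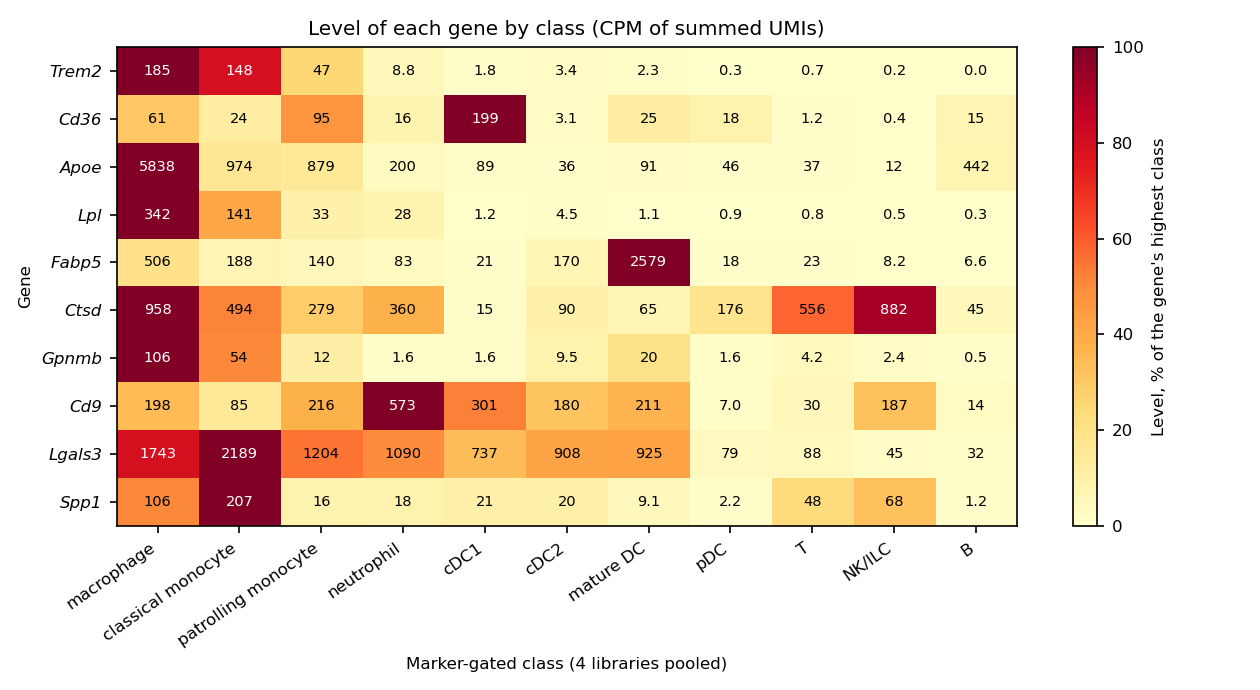
Level of each gene (vertical axis) in each of 11 cell classes (horizontal axis), in CPM over the cells of all 4 libraries; numbers are CPM and colour is the percent of that gene's highest class. Macrophages were highest for Trem2, Apoe, Lpl, Ctsd and Gpnmb, and classical monocytes for Lgals3 and Spp1.

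Over the cells of the 4 libraries together, 7 of the 10 genes had their highest level in macrophages or classical monocytes, as the map of levels by class shows. The other 3 peaked elsewhere in the immune compartment. Cd36 was highest in type 1 conventional dendritic cells at 199 CPM, Fabp5 in mature dendritic cells at 2579 CPM and Cd9 in neutrophils at 573 CPM. Within a library the order of neighbouring classes often could not be told apart by the intervals, as given for each gene.

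Trem2 (chr17:48346401-48354147, plus strand, GRCm38) encodes the lipid-sensing receptor for which the state is best known. Its level in macrophages was 153 CPM (107 to 213) for young WT, 228 CPM (191 to 271) for WT, 84.4 CPM (57.7 to 119) for miR-146a-/- and 211 CPM (180 to 247) for DKO. The WT and DKO libraries were high and the miR-146a-/- library was low, with an interval apart from both. A single cell held 14 of the 32 UMIs in miR-146a-/- macrophages, and without it the level was 50.3 CPM. Classical monocytes had another order, at 93.0, 111, 154 and 158 CPM, so that in miR-146a-/- they stood above macrophages. Patrolling monocytes were lower, at 55.3, 70.7, 43.6 and 43.6 CPM. Macrophages exceeded classical monocytes beyond the intervals in WT and DKO but not in young WT.

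Cd36 (chr5:17781690-17888801, minus strand) encodes a scavenger receptor that takes up fatty acids and oxidised lipoproteins. Macrophages held 43.8 CPM (21.0 to 80.6), 86.5 CPM (64.2 to 114), 73.9 CPM (49.1 to 107) and 41.5 CPM (28.4 to 58.6), from 10, 50, 28 and 32 UMIs. Of these intervals only those of WT and DKO did not overlap, and without 1 cell miR-146a-/- stood at 44.7 CPM. Patrolling monocytes held more of it than macrophages beyond the intervals in all libraries but miR-146a-/-, at 161, 163, 80.9 and 85.9 CPM. Type 1 conventional dendritic cells were highest in each library, at 228, 199, 159 and 192 CPM.

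Apoe (chr7:19696109-19699188, minus strand) encodes a lipoprotein that carries cholesterol out of macrophages and that hepatocytes also secrete. Its level in macrophages was 6072 CPM (5757 to 6400), 8313 CPM (8080 to 8552), 2804 CPM (2638 to 2978) and 5403 CPM (5240 to 5570). The 4 intervals were apart, with WT highest and miR-146a-/- lowest. The log2 ratio of WT to young WT, 0.45, ran from -0.11 to 0.64 across 11 other settings and kept its sign in 8. Classical monocytes held 2195, 1608, 671 and 902 CPM, and patrolling monocytes 1857, 1507, 706 and 796. Macrophages were above every other class in each library. B cells held 272, 679, 394 and 487 CPM, and natural killer and innate lymphoid cells 7.80, 19.95, 6.34 and 10.1. The hepatocyte list (6, 8, 6 and 7 of 8 genes with a UMI) summed to 368, 341, 116 and 176 CPM in macrophages. Its most abundant gene was Trf, the transferrin gene, at 267, 266, 87.0 and 126 CPM, while Alb, the albumin gene, stood at 65.7, 32.9, 5.28 and 15.6. Its part in the Apoe levels was not tested.

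Lpl (chr8:68880491-68907448, plus strand) encodes the lipase that frees fatty acids from triglyceride-rich lipoproteins. Macrophages held 101 CPM (63.9 to 151), 322 CPM (277 to 371), 145 CPM (109 to 189) and 527 CPM (477 to 580.5). DKO was highest and WT next, with both above the other libraries. A single cell held 40 of the 55 Lpl UMIs in miR-146a-/- macrophages, and without it the level was 41.9 CPM. In DKO a single cell held 153 of 406, and without it the level was 339 CPM. Classical monocytes held 155, 280, 103 and 125 CPM, highest in WT, and patrolling monocytes 91.5, 61.5, 23.6 and 29.0, with young WT at 58.3 without 1 cell. Macrophages and classical monocytes were apart in DKO alone.

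Fabp5 (chr3:10012548-10016607, plus strand) encodes a cytosolic carrier of fatty acids, and it is the gene with the seed match shown above. In macrophages it stood at 942 CPM (820.2 to 1077), 693 CPM (627 to 765), 309 CPM (255 to 370) and 333 CPM (294 to 377). Both knockout libraries were low and their intervals overlapped. In young WT a single macrophage held 110 of the 215 UMIs, and without it the level was 487 CPM, while miR-146a-/- without its highest cell stood at 199 CPM. Mature dendritic cells were highest in each library, at 3635, 2099, 2089 and 3324 CPM. Classical monocytes held 477, 421, 119 and 145 CPM, and 208 of the 277 UMIs in young WT came from 1 cell. Patrolling monocytes held 143, 212, 150 and 124 CPM, with young WT at 69.6 without 1 cell.

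Ctsd (chr7:142375911-142388038, minus strand) encodes cathepsin D, a lysosomal protease. The level in macrophages was 609 CPM (512 to 719), 1183 CPM (1096 to 1275), 746 CPM (662 to 839) and 998 CPM (928 to 1071). WT was highest, followed by DKO. Natural killer and innate lymphoid cells were also high, at 900.3, 816, 904 and 916 CPM, and were above macrophages in young WT and miR-146a-/-. T cells held 454, 606, 614 and 602 CPM and, by their number, 57.3%, 40.4%, 48.9% and 35.01% of the Ctsd UMIs of kept cells. Ctsd was therefore far from restricted to macrophages.

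Gpnmb (chr6:49036546-49070929, plus strand) encodes a transmembrane glycoprotein of lysosomes and phagosomes. Its level in macrophages was 83.2 CPM (50.1 to 130), 118 CPM (91.3 to 149), 23.7 CPM (10.9 to 45.1) and 145 CPM (120 to 175). The miR-146a-/- library was lowest, with 9 UMIs in 5 cells, against 19, 68 and 112 UMIs in the other 3. In young WT 9 of the 19 came from 1 cell, and without it the level was 46.4 CPM. Classical monocytes held 158, 110, 30.2 and 46.5 CPM, low in both knockout libraries. The 92 UMIs of young WT came from 3 of 46 cells, and without the highest, with 42, its level was 88.1 CPM. Patrolling monocytes held 19.1, 40.9, 7.23 and 8.70 CPM, with young WT at 6.81 without 1 cell. Macrophages and classical monocytes overlapped in young WT, WT and miR-146a-/- and were apart in DKO.

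Cd9 (chr6:125460266-125494791, minus strand) encodes a tetraspanin of the cell surface. In macrophages it stood at 140 CPM (95.9 to 198), 294 CPM (251 to 342), 214 CPM (170 to 266) and 136 CPM (111 to 165). WT was highest, overlapping miR-146a-/-, and young WT and DKO overlapped. Classical monocytes held 87.8, 192, 63.3 and 69.0 CPM, highest in WT, whereas patrolling monocytes held 270, 185, 236 and 206 CPM. Neutrophils were highest in each library, at 940, 1241, 487 and 513 CPM, in 20, 21, 48 and 43 cells.

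Lgals3 (chr14:47367751-47386160, plus strand) encodes galectin-3, a secreted lectin of activated macrophages. In macrophages it stood at 1376, 2099, 2311 and 1306 CPM, so that WT and miR-146a-/- were high. Without 1 cell, which held 340 of 876 UMIs, miR-146a-/- stood at 1499.8 CPM. Classical monocytes held 1529, 2111, 2197 and 2257 CPM, and patrolling monocytes 910.2, 1361, 1059 and 1280. In DKO, macrophages stood below classical monocytes, and in the other libraries their intervals overlapped.

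Spp1 (chr5:104435118-104441050, plus strand) encodes osteopontin, a secreted phosphoprotein linked to fibrosis. In macrophages it stood at 30.7 CPM (12.3 to 63.2), 62.2 CPM (43.6 to 86.2), 73.9 CPM (49.1 to 107) and 176 CPM (148 to 209). Each value rested in large part on 1 cell, which held 4 of 7, 22 of 36, 15 of 28 and 121 of 136 UMIs. Without that cell the levels were 13.9, 25.1, 36.3 and 20.2 CPM, so that DKO was no longer highest. Classical monocytes were above the other classes in each library, at 103, 242, 155 and 240 CPM, and without the highest cell young WT stood at 40.6 and miR-146a-/- at 95.1 CPM. Without that cell, classical monocytes of young WT stood close to natural killer and innate lymphoid cells, which held 38.0 CPM there. Patrolling monocytes held 0, 112, 5.59 and 8.12 CPM, and 161 of the 243 UMIs in WT (66.3%) came from 1 cell.

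**Figure D2:**
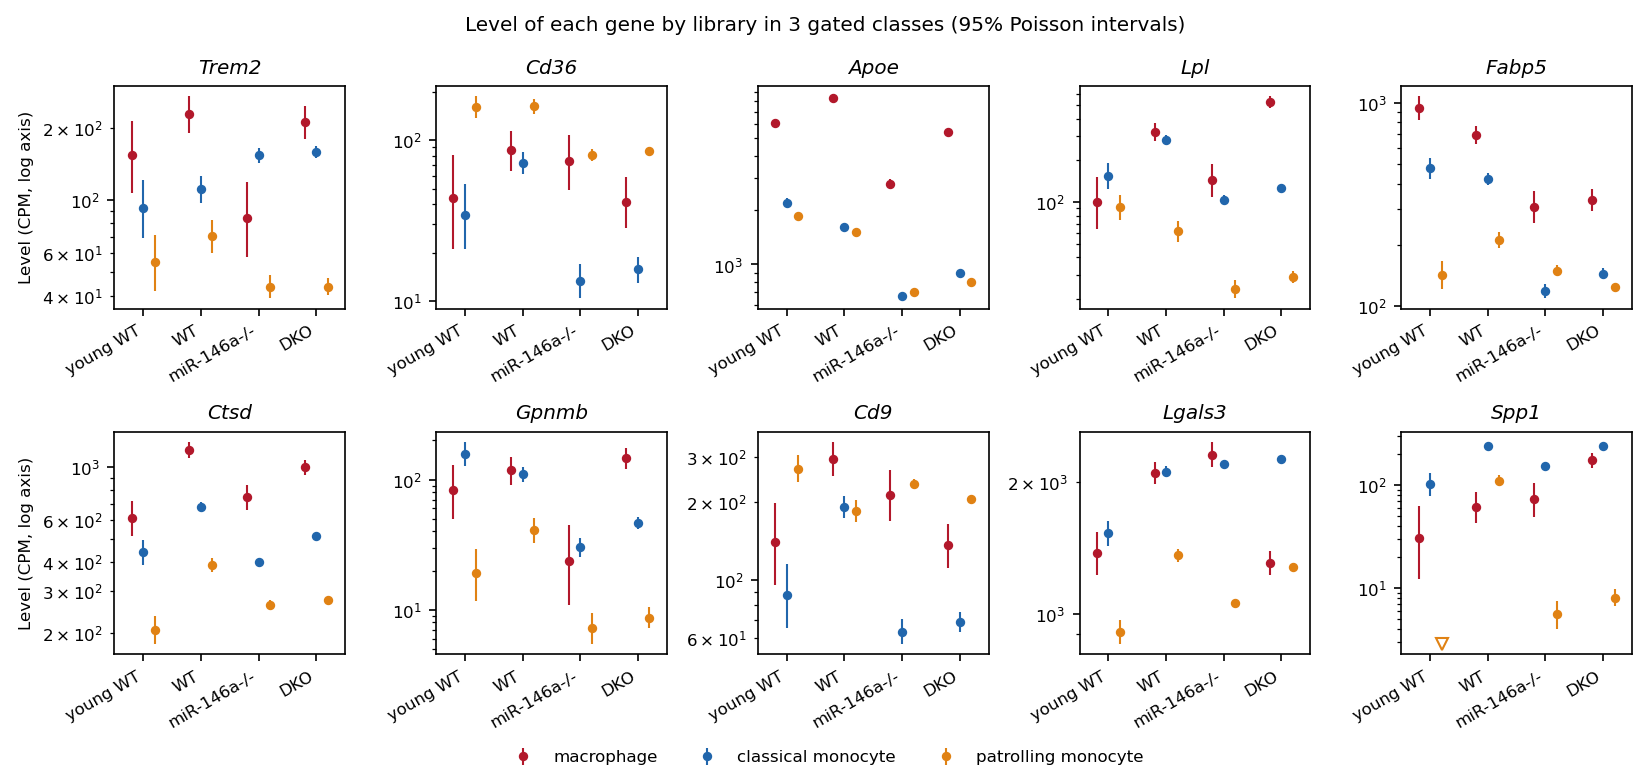
Level of each gene in CPM (vertical log axis) in the 4 libraries (horizontal axis) for macrophages, classical monocytes and patrolling monocytes, with 95% counting intervals; an open triangle is the floor of 3 counts where no UMI was found. Apoe, Gpnmb and Trem2 in macrophages were lowest in miR-146a-/-.

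Promoter windows were searched for motifs of factors tied to these genes in macrophages, because several of the genes stood apart together between libraries. RefSeq windows (GRCm38.p6) of the 250 bases before a start were found for 8 of the 10 genes, in 11 windows, and all 32851 windows gave the background. CACGTG, the letters bound by the lysosomal factors TFEB and MITF and the same on both strands, was in 6.02% of all windows and, among the 10 genes, in that of Ctsd, in 2 places. TGACTCA and TGAGTCA, the AP-1 letters on either strand, were in 4.46% of all windows and in none of the 11. GAGGAAGT, letters bound by the myeloid factor PU.1, was searched for on both strands and was in 2.44% of all windows and in that of Spp1. The Spp1 window (chr5:104434861-104435110, plus strand) has its match 113 bases before the start. The 30 bases at each Ctsd match (chr7:142388048-142388077 and chr7:142387908-142387937, minus strand) lie 245 and 98 bases before the start, and the nearer match is inside a first exon of a longer annotated transcript. Capitals mark the matched letters, which describe sequence and show no binding.
Spp1 window: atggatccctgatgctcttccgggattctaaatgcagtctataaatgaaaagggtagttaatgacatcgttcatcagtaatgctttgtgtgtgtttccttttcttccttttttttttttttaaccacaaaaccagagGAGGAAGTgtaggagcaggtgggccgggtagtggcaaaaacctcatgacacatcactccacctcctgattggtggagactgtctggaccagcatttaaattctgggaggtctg
Ctsd far match: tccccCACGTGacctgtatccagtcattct
Ctsd near match: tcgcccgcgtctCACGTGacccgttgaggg

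WT was set against young WT to ask what differed in treated, older livers. In macrophages, Lpl was 3.13-fold higher in WT and Cd9 2.07-fold higher, and no gene of the 10 was over 2-fold lower. The log2 ratio was 1.65 (1.05 to 2.37) for Lpl and 1.05 (0.52 to 1.66) for Cd9. Ctsd at 0.95 (0.69 to 1.23), Spp1 at 0.94 (-0.17 to 2.43) and Cd36 at 0.92 (-0.02 to 2.13) came near 2-fold. Fabp5 had the single negative value, -0.44 (-0.68 to -0.20), which ran up to 0.21 in other settings, and the young WT level rested in large part on 1 cell. A gene was tested against the 2-fold line where either library reached both 50 CPM and 20 UMIs. A gene could thus be tested through its higher library alone, as Gpnmb was in macrophages, and the shares of all genes follow the same rule. By that rule 2 of 10 were over 2-fold higher, against 4.5% of 3264 genes tested, and 0 were over 2-fold lower, against 3.98%. The median log2 ratio was 0.77 for the 10 genes and 0.04 for all genes tested. With trimmed-mean (TMM) scaling, which moved ratios by 0.15 on the log2 scale, the shares of all genes were 6.83% higher and 2.97% lower, and 5 of the 10 genes were over 2-fold apart.

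The count in WT against young WT also moved with the cells taken. Across 11 other settings the log2 ratio ran from 0.02 to 1.52 for Cd9 and from 0.66 to 1.87 for Lpl. Both were lowest with monocytes, macrophages and other myeloid cells together. The count was 1 with a lower limit of 200 features, with droplets bearing lymphocyte markers taken in, and with monocytes, macrophages and other myeloid cells together. Without the cell highest in each gene it was 4. The Kupffer genes Clec4f, Vsig4, Timd4 and Marco summed to 929 CPM in young WT macrophages and 227 in WT. Cells with at least 2 of these 4 markers numbered 3, 3, 0 and 1, and with them left out 3 genes were over 2-fold apart. Shares of all genes are not given for these settings, so no background stands beside the counts.

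In classical monocytes, Spp1 was 2.33-fold, Cd9 2.16-fold and Cd36 2.05-fold higher in WT than in young WT. Their log2 ratios were 1.22 (0.84 to 1.64), 1.11 (0.70 to 1.58) and 1.04 (0.39 to 1.82). The young WT level of Cd36 rested on 20 UMIs, 8 of them in 1 cell, and was 21.4 CPM without it. These 3 of 10 genes over 2-fold higher stood against 2.09% of 3543 genes, and 0 over 2-fold lower against 2.71%. In patrolling monocytes Spp1 was at least 39.0-fold higher, taking a floor of 3 counts for the 0 UMIs of young WT (2.86 CPM). As 161 of the 243 WT UMIs came from 1 of 170 cells, the WT level fell from 112 to 38.1 CPM without it. Of 9 genes tested 1 was over 2-fold higher, against 1.44% of 3469 genes, and 0 were over 2-fold lower, against 0.807%. Cd9 had a log2 ratio of -0.55 in patrolling monocytes. That of Lpl was -0.57, but 1 young WT cell held 36 of 96 UMIs, and without it young WT stood at 58.3 CPM against 61.5 in WT.

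miR-146a-/- was set against WT, with the same treatment and age, to ask what went with loss of miR-146a. In macrophages, Gpnmb was 4.73-fold, Apoe 2.96-fold, Trem2 2.67-fold, Fabp5 2.24-fold and Lpl 2.20-fold lower in miR-146a-/- than in WT. These genes cover the receptor, the lipid carriers, the lipase and a lysosomal glycoprotein. No gene of the 10 was over 2-fold higher. The log2 ratios were -2.24 (-3.50 to -1.30) for Gpnmb, -1.57 (-1.67 to -1.47) for Apoe, -1.42 (-2.04 to -0.87) for Trem2, -1.16 (-1.48 to -0.87) for Fabp5 and -1.14 (-1.61 to -0.71) for Lpl. Ctsd at -0.66 (-0.87 to -0.46) and Cd9 at -0.46 (-0.86 to -0.07) were lower by less, and Cd9 ran up to 0.09 in other settings. Lgals3 at 0.14 (0.01 to 0.27), Spp1 at 0.25 (-0.52 to 1.00) and Cd36 at -0.22 (-0.95 to 0.47) lay near 0. The 5 of 10 genes over 2-fold lower stood against 6.26% of 3465 genes tested, and 0 over 2-fold higher against 2.8%. The median log2 ratio was -0.90 for the 10 genes and -0.07 for all.

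Across 11 other settings the log2 ratio of Gpnmb between miR-146a-/- and WT macrophages ran from -2.82 to -2.19. That of Apoe ran from -2.08 to -0.88 and that of Trem2 from -2.82 to -0.10. The value nearest 0 for Trem2 came with monocytes, macrophages and other myeloid cells together. That of Lpl ran from -3.38 to -0.55 and that of Fabp5 from -1.42 to -0.89, each nearest 0 with at least 4 markers required. For Spp1 it ran from -1.08 to 0.52, with a negative sign in 4 of the 11. The WT library is shared with the comparison to young WT, so the 2 comparisons are not independent.

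Classical monocytes had 6 of 10 genes over 2-fold lower in miR-146a-/- than in WT. These were Cd36 at a log2 ratio of -2.42 (-2.86 to -2.00), Gpnmb at -1.86 (-2.17 to -1.56), Fabp5 at -1.83 (-1.98 to -1.68), Cd9 at -1.60 (-1.82 to -1.38), Lpl at -1.44 (-1.61 to -1.26) and Apoe at -1.26 (-1.33 to -1.19). Trem2 differed from them, at 0.47 (0.26 to 0.68). Cd36 and Gpnmb passed the limits through WT alone, standing at 13.4 and 30.2 CPM in miR-146a-/-. These genes could therefore be called lower but not higher, which leans the count towards lower. Over all 3515 genes 4.84% were over 2-fold lower, and 2.48% over 2-fold higher against 0 of the 10. The median log2 ratio was -1.35 for the 10 genes and 0.00 for all. Median depth differed, at 11421.5 UMIs per classical monocyte in WT and 18132 in miR-146a-/-.

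In patrolling monocytes, Spp1, Lpl, Apoe and Cd36 were over 2-fold lower in miR-146a-/- than in WT, 4 of 9 genes tested against 4.14% of 3480 genes. Their log2 ratios were -4.30 (-4.83 to -3.84), -1.38, -1.09 and -1.01, with most of the WT Spp1 in 1 cell. Spp1 and Lpl passed the limits through WT alone, standing at 5.59 and 23.6 CPM in miR-146a-/-. Gpnmb, at 40.9 CPM in WT and 7.23 in miR-146a-/-, did not pass them. None of the 9 was over 2-fold higher, against 2.39%. The neutrophil list (4, 7, 8 and 8 of 8 genes found) differed in this class, summing to 76.2, 316, 5427 and 3040 CPM in patrolling monocytes of the 4 libraries, with Csf3r its most abundant gene in young WT and S100a9 in the others, and Ly6g at 0 in young WT and WT. Its part in the ratios, and that of the lower Ly6c2 and Ccr2 given above, was not tested.

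DKO was set against miR-146a-/- to ask what went with loss of Ccl5 on that background. In macrophages, Gpnmb was 5.82-fold, Lpl 3.60-fold, Trem2 2.47-fold and Spp1 2.36-fold higher in DKO, and Apoe came near 2-fold. No gene of the 10 was over 2-fold lower. The log2 ratios were 2.54 (1.64 to 3.78) for Gpnmb, 1.85 (1.45 to 2.29) for Lpl, 1.31 (0.77 to 1.92) for Trem2 and 1.24 (0.66 to 1.90) for Spp1. Apoe stood at 0.95 (0.85 to 1.04), Ctsd at 0.42 (0.22 to 0.62) and Fabp5 at 0.11 (-0.21 to 0.44). Cd9 at -0.65 (-1.08 to -0.21), Lgals3 at -0.82 (-0.95 to -0.69) and Cd36 at -0.83 (-1.61 to -0.05) had negative values, the last 2 turning positive in 1 of 11 other settings each. The 4 of 10 genes over 2-fold higher stood against 5.21% of 3399 genes tested, and 0 over 2-fold lower against 3.12%. The median log2 ratio was 0.68 for the 10 genes and 0.06 for all.

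The Spp1 ratio between DKO and miR-146a-/- macrophages turned to -0.81 without the cell highest in Spp1, and to -2.34 with at least 4 markers required. With monocytes, macrophages and other myeloid cells together, 0 of the 9 genes tested were over 2-fold apart in this comparison, against 4 in macrophages alone. The share of all genes is not given for the pooled setting, so the lower count is not read as a result about these genes. Across the 11 settings the ratio ran from 0.91 to 2.86 for Gpnmb, from 0.57 to 3.94 for Lpl and from 0.14 to 2.46 for Trem2, each lowest in that setting. T-cell genes in macrophages (7, 8, 7 and 8 of 8 found) summed to 254, 166, 161 and 42.8 CPM, lowest in DKO, with Cd3e, Cd3d, Cd3d and Cd3g most abundant. Ly6c2 was lower and Cd5l higher in DKO macrophages, as given above. Negr1, a cell adhesion gene, stood at 96.4, 6.92, 47.5 and 332 CPM, highest in DKO. Median depth of macrophages was 8534, 8948, 8697 and 6679 UMIs. The part of these differences in the ratios was not tested. The miR-146a-/- library, lowest for several genes, is shared with the comparison to WT.

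With all cells counted, monocytes held no tested gene of the 10 over 2-fold apart between DKO and miR-146a-/-. In classical monocytes 0 of 8 tested were over 2-fold higher or lower, against 0.367% higher and 0.0917% lower of 3271 genes. Among genes tested, the highest value was 0.63 for Spp1, followed by 0.43 for Apoe and 0.37 for Ctsd. The Spp1 value depended on single cells, as 1 miR-146a-/- cell held 302 of 775 UMIs. Without the highest cell of each library, Spp1 stood at 95.1 CPM in miR-146a-/- and 204 in DKO, past the 2-fold line. Cd36 and Gpnmb were not tested, with Gpnmb at 30.2 CPM in miR-146a-/- and 46.5 in DKO. In patrolling monocytes 0 of 6 tested were over 2-fold higher or lower, against 0.962% higher and 0.15% lower of 3325 genes, with log2 ratios from -0.27 for Fabp5 to 0.27 for Lgals3. Negr1, Fcgr4 and C1qb differed between the same cells, as given above.

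**Figure D3:**
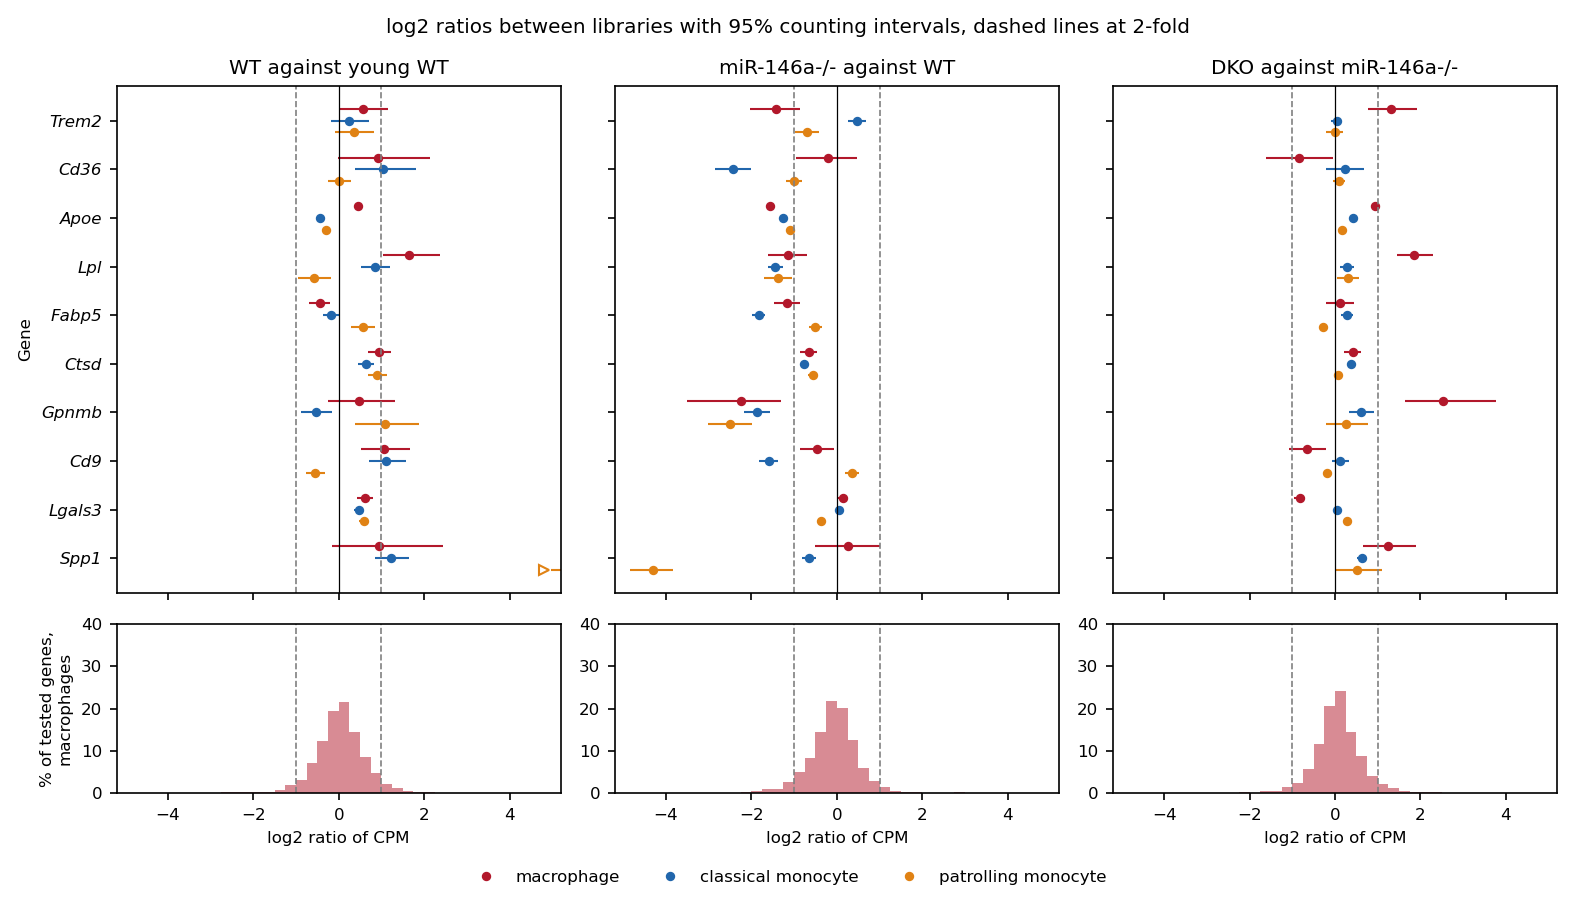
Log2 ratios with 95% counting intervals of the 10 genes (vertical axis) in macrophages, classical monocytes and patrolling monocytes for the 3 comparisons, dashed lines at 2-fold, above histograms of all genes tested in macrophages; the open triangle marks 0 UMIs in young WT. In macrophages Gpnmb, Trem2 and Lpl lay below -1 for miR-146a-/- against WT and above 1 for DKO against miR-146a-/-.

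Other genes of the same pathways were read from 5 lists, of which 50 of 51 genes were analysed. TREM2 signalling (Tyrobp, Hcst, Syk, Plcg2, Inpp5d and Vav1) had 6 genes tested in macrophages, and none was over 2-fold apart in any of the 3 comparisons, with medians of 0.07, 0.12 and -0.01 on the log2 scale. Of all genes tested in macrophages, 4.5% were over 2-fold higher and 3.98% lower in the first comparison, 2.8% and 6.26% in the second, and 5.21% and 3.12% in the third. Trem2 itself was over 2-fold apart in the last 2 of them. The lysosome list had 17 genes tested, again with none over 2-fold apart, and medians of 0.07, 0.04 and 0.12.

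Lipid storage and efflux genes had single genes apart in macrophages. Plin2, which coats lipid droplets, was at 184 CPM in young WT and 456 in WT, a log2 ratio of 1.30, and Abca1, a cholesterol exporter, at 110 and 41.5, a ratio of -1.40, so that 1 of 8 tested was higher and 1 lower, against 4.5% and 3.98% of all genes. Msr1, a scavenger receptor, was at 57.1 CPM in WT macrophages, 21.1 in those of miR-146a-/- and 66.2 in those of DKO, the single gene of 7 over 2-fold lower in miR-146a-/-, against 6.26% of all genes. Fabp4, another fatty acid carrier, stood at 21.1 CPM in miR-146a-/- and 94.7 in DKO, and with Msr1 made 2 of 9 over 2-fold higher in DKO, against 5.21%.

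Among 3 transcription factors tested in macrophages, Bhlhe40, a repressor induced by activation, was at 207 CPM in WT, then 55.4 in miR-146a-/- and 25.9 with Ccl5 lost as well, over 2-fold lower at each step, 1 of 3 against 6.26% and then 3.12% of all genes. No transcription factor was over 2-fold apart between WT and young WT. The list of other genes of the state had 0 of 6 apart in WT against young WT, 2 lower and 1 higher of 6 in miR-146a-/- against WT (6.26% and 2.8% of all genes), and 1 higher of 5 in DKO against miR-146a-/- (5.21%). Mmp12, the macrophage elastase, stood at 70.9 CPM in WT and 58.4 in DKO, but 18.5 in miR-146a-/-. Igf1, a growth factor, was at 192 CPM in WT and 5.28 in miR-146a-/-, from 2 UMIs, a log2 ratio of -4.87 (-8.25 to -3.30). Ms4a7, a membrane gene of macrophages, ran the other way, at 214 CPM in WT and 501 in miR-146a-/-.

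In classical monocytes, genes of 4 of the 5 lists were over 2-fold lower in miR-146a-/- than in WT. All 5 tested genes of the state's other markers were over 2-fold lower, as were 4 of 17 lysosome genes, 2 of 6 lipid genes, 1 of 4 transcription factors and 0 of 6 TREM2 signalling genes. Of all genes tested, 4.84% were over 2-fold lower. The list of other markers had 1 gene tested in DKO against miR-146a-/-. Most of its 5 genes here thus passed the limits through WT alone, where they were high, which leans their count towards lower. Cd63, a lysosomal tetraspanin, was at 217 CPM in WT and 21.6 in miR-146a-/-, a log2 ratio of -3.32. Mmp12 had a ratio of -4.43, Axl, a receptor for dying cells, -2.26, and Itgax, an integrin of dendritic cells and macrophages, -1.59. Against young WT, WT classical monocytes had 3 of 5 of the other markers, 3 of 6 lipid genes, 1 of 17 lysosome genes and 1 of 4 transcription factors over 2-fold higher, and 1 of 6 TREM2 signalling genes over 2-fold lower. The shares of all genes tested were 2.09% higher and 2.71% lower. Between DKO and miR-146a-/- none of the genes tested from the 5 lists was over 2-fold apart in this class. They were 6 TREM2 signalling, 16 lysosome, 5 lipid and 3 transcription factor genes and 1 other marker. The shares of all genes there were 0.367% higher and 0.0917% lower. In patrolling monocytes, 2 of 3 tested other markers and 1 of 16 lysosome genes were over 2-fold lower in miR-146a-/- than in WT, against 4.14% of all genes. Against young WT, 1 of 3 other markers, 1 of 3 transcription factors, 1 of 6 lipid genes and 1 of 16 lysosome genes were over 2-fold higher in WT, against 1.44%. In DKO against miR-146a-/- it was 1 of 3 other markers, against 0.962%.

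Shares of cells with a UMI were read after thinning each cell to 2000 UMIs, which left out 3, 6, 6 and 8 macrophages, 2, 7, 37 and 4 classical monocytes, 1, 2, 28 and 46 patrolling monocytes, 37, 22, 2 and 10 B cells, and 207, 106, 54 and 78 T cells. Trem2 was found in 18.2%, 29.4%, 6.90% and 18.7% of macrophages (36.0%, 59.6%, 22.9% and 31.3% unthinned). In B cells, which should lack it, it was found in 0 cells of each library, where a count of 0 allows up to 0.245% to 0.69%. Gpnmb was found in 22.7%, 15.7%, 3.45% and 12% of macrophages (24.0%, 35.1%, 14.3% and 18.1% unthinned), against 0.0818%, 0%, 0.23% and 0% of B cells. Macrophages in miR-146a-/- had the lowest value for both genes. Thinning left 29 of these cells, so both shares rest on very few cells and no order is read from them. Median depths of B cells were 5540, 6679, 6915 and 6459 UMIs, below those of macrophages given above.

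Lpl was found in 13.6%, 35.3%, 13.8% and 12% of thinned macrophages (32.0%, 54.4%, 25.7% and 31.3% unthinned), against at most 0.448% of B cells. The DKO library, highest for Lpl by CPM, was lowest by this share, so no order is read from it. Apoe was found in 72.7%, 78.4%, 58.6% and 61.3% of macrophages (84.0%, 89.5%, 65.7% and 65.1% unthinned), but also in 22.2%, 29.3%, 25.5% and 25.5% of B cells. Ctsd was found in 59.1%, 68.6%, 69.0% and 54.7% of macrophages (84.0%, 93.0%, 85.7% and 79.5% unthinned), and in 55.2%, 64.7%, 66.0% and 67.3% of T cells (85.9%, 90.9%, 91.9% and 91.1% unthinned), against 7.69%, 7.91%, 11.5% and 6.21% of B cells. Apoe was thus found in B cells as well, and Ctsd was a gene of T cells as much as of macrophages by this measure.

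Several of the 10 genes were often found in the same cell. At least 5 of the 10 were found in 18.2%, 29.4%, 10.3% and 16.0% of thinned macrophages (48.0%, 71.9%, 40% and 41.0% unthinned). In classical monocytes the share was 13.6%, 16.8%, 7.28% and 8.51% (45.7%, 52.6%, 46.6% and 54.0% unthinned), and in patrolling monocytes 4.81%, 12.5%, 2.94% and 3.45% (44.8%, 62.9%, 32.2% and 29.2% unthinned). After thinning to 2000 UMIs, the value was highest in WT in each of the 3 classes, but its interval overlapped that of young WT in each. The lowest library changed with depth, since in patrolling monocytes thinned to 1000 UMIs young WT stood at 0% and miR-146a-/- at 0.258%. At 2000 UMIs the macrophage intervals of WT (17.5% to 43.8%) and miR-146a-/- (2.19% to 27.4%) overlapped too. Those of WT and miR-146a-/- were apart in classical monocytes, at 11.7% to 22.9% and 4.44% to 11.1%. They were also apart in patrolling monocytes, at 7.91% to 18.5% and 1.85% to 4.41%. No thinned B cell reached 5 genes, and in T cells the share was 0%, 0.0586%, 0% and 0%. In neutrophils it was 5.0%, 17.6%, 0% and 0%, the WT value from 3 of 17 cells. Type 1 conventional dendritic cells stood at 0% in each library, but at 20.2%, 32.3%, 18.3% and 23.1% unthinned.

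Cells with at least 2 Gpnmb UMIs were set against cells with none among monocytes, macrophages and other myeloid cells together. They were 9, 69, 40 and 71 cells against 207, 540, 1275 and 2331. Apoe was higher in the Gpnmb cells of each library, at 4755 CPM against 1512 in WT, 1778 against 622 in miR-146a-/- and 2755 against 844 in DKO. Fabp5 stood at 1206 against 195 CPM in WT, 828 against 128 in miR-146a-/- and 918 against 117 in DKO. Ctsd stood at 1467 against 365, 1088 against 264 and 1503 against 316 CPM. These 3 genes were more than 2-fold higher in Gpnmb cells of each treated library. Trem2 was higher too, at 189 against 71.0 CPM in WT, 134 against 76.8 in miR-146a-/- and 206 against 82.2 in DKO. Cd9, Cd36 and Spp1 did not follow in every library. Cd9 did not differ beyond its intervals in miR-146a-/-, at 139 CPM (114 to 168) in the Gpnmb cells against 159 (152 to 165). Spp1 did not either, at 50.8 CPM (35.9 to 69.7) against 41.8 (38.5 to 45.3) in miR-146a-/-, nor did Cd36, at 58.8 (42.7 to 78.9) against 47.4 (43.9 to 51.1). Cd36 was lower in the Gpnmb cells of young WT, at 17.2 CPM (2.08 to 62.0) against 103 (89.8 to 117). Cells with Gpnmb were also deeper, with medians of 13418, 12122, 16767 and 17080 UMIs against 9350, 10638.5, 9082 and 7281, and the part of depth and of class was not tested.

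**Figure D4:**
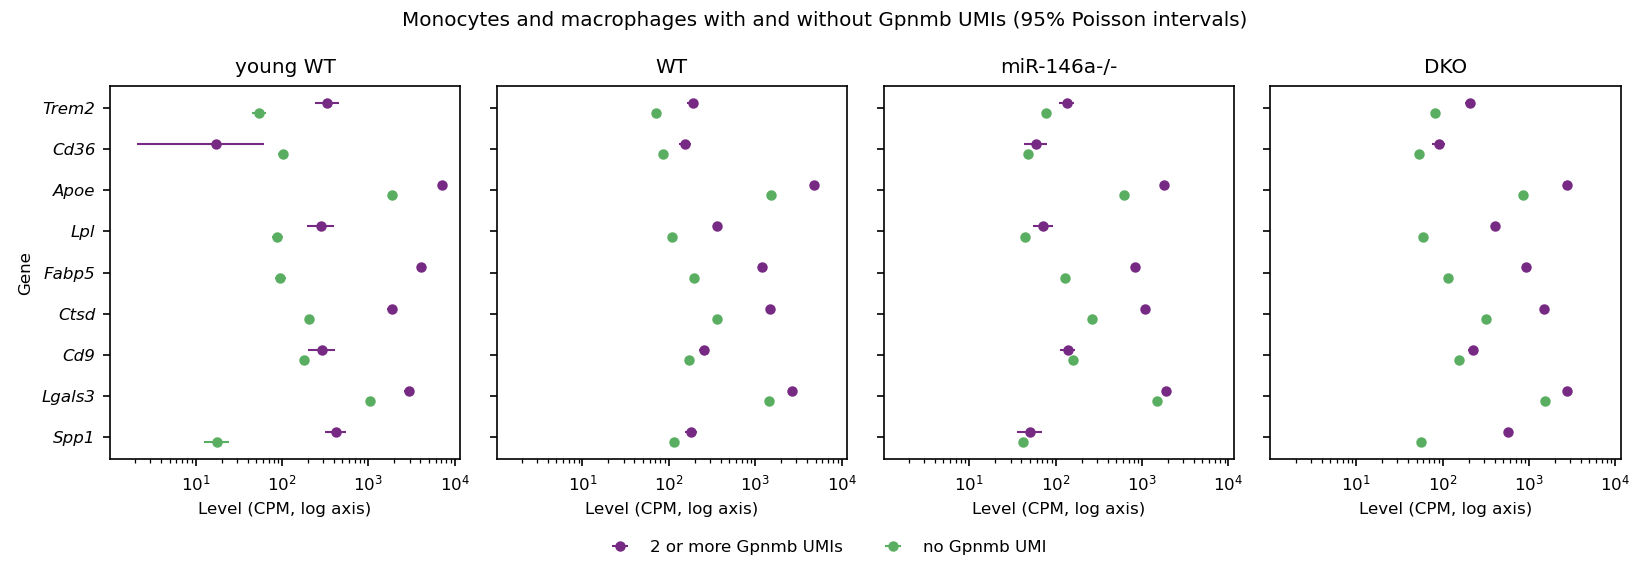
Level of the 9 other genes in CPM (log axis) in monocytes, macrophages and other myeloid cells with at least 2 Gpnmb UMIs and in those with none, by library, with 95% counting intervals. Apoe, Fabp5, Ctsd and Trem2 were higher in the Gpnmb cells of all 4 libraries.

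Few macrophages carried several Kupffer markers. The 7 cells with at least 2 of the 4 Kupffer markers held 0 UMIs of Gpnmb and 0 of Spp1. These counts of 0 allow up to 153 CPM in young WT, 95.6 in WT and 167 in DKO. In the remaining 22, 54, 35 and 82 macrophages Gpnmb stood at 93.1, 126, 23.7 and 150 CPM, Trem2 at 162, 239, 84.4 and 218, and Apoe at 5507, 8402, 2804 and 5552. The value was lowest in miR-146a-/- for each of these 3 genes. As miR-146a-/- lost no cell and the other libraries few, the split could hardly change the order seen with all macrophages.

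Genes with the pattern most like Gpnmb over 37 sums of class and library, each of at least 50 cells, were Lpl (Pearson r of 0.914), Rab20 (0.909), Msr1 (0.904), 4930430E12Rik (0.904) and C3ar1 (0.896), among 6277 genes. Among those most like Trem2 were C5ar1 (0.967), Gdf3 (0.965), Lpl (0.964) and Cfb (0.962). Lpl was in both sets. Macrophages of young WT and miR-146a-/-, with 25 and 35 cells, were below the limit of cells and not among the sums. Of the other genes of the 10, r with Trem2 was 0.877 for Gpnmb, 0.829 for Apoe, 0.756 for Lgals3 and 0.733 for Fabp5. Spp1 at 0.483, Cd36 at 0.441, Ctsd at 0.428 and Cd9 at 0.367 followed Trem2 less. The r with Gpnmb was 0.754 for Fabp5, 0.718 for Apoe and 0.681 for Lgals3. Spp1 at 0.531, Ctsd at 0.470, Cd9 at 0.384 and Cd36 at 0.323 followed Gpnmb less. The sums share libraries and classes, so these values describe the pattern and carry no test.

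Classes other than macrophages and monocytes held much of some genes. Spp1 in T cells stood at 11.1, 130, 40.9 and 22.1 CPM, and in WT the T cells held 3911 UMIs, 47.8% of the Spp1 UMIs of the library. The share of thinned T cells with an Spp1 UMI was 0.514%, 3.95%, 1.5% and 0.873% (1.03%, 6.79%, 3.22% and 1.85% unthinned), against 0.327%, 0.448%, 0% and 0% of B cells. Median depth of T cells was 7057, 7387, 6992 and 6478.5 UMIs. T-cell Spp1 was thus highest in WT, with a log2 ratio of 3.54 to young WT and of -1.67 for miR-146a-/- against WT. Gpnmb in T cells stood at 7.99, 3.06, 2.04 and 1.98 CPM, against 0.470, 0.523, 0.281 and 0.714 in B cells. Young WT T cells held 345 Gpnmb UMIs, 49.6% of those of the library.

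Mixed droplets, left out of all classes, held a large part of the macrophage genes. Of the WT UMIs in kept cells they held 65.7% for Trem2, 64.1% for Apoe, 62.5% for Gpnmb and 61.8% for Lpl. For Trem2 the share was 51.5%, 65.7%, 34.7% and 22.2% in the 4 libraries, highest in WT and lowest in DKO. The gated macrophages therefore stand for part of the cells that carry these genes, and the plot of UMI sources shows each class's share.

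**Figure D5:**
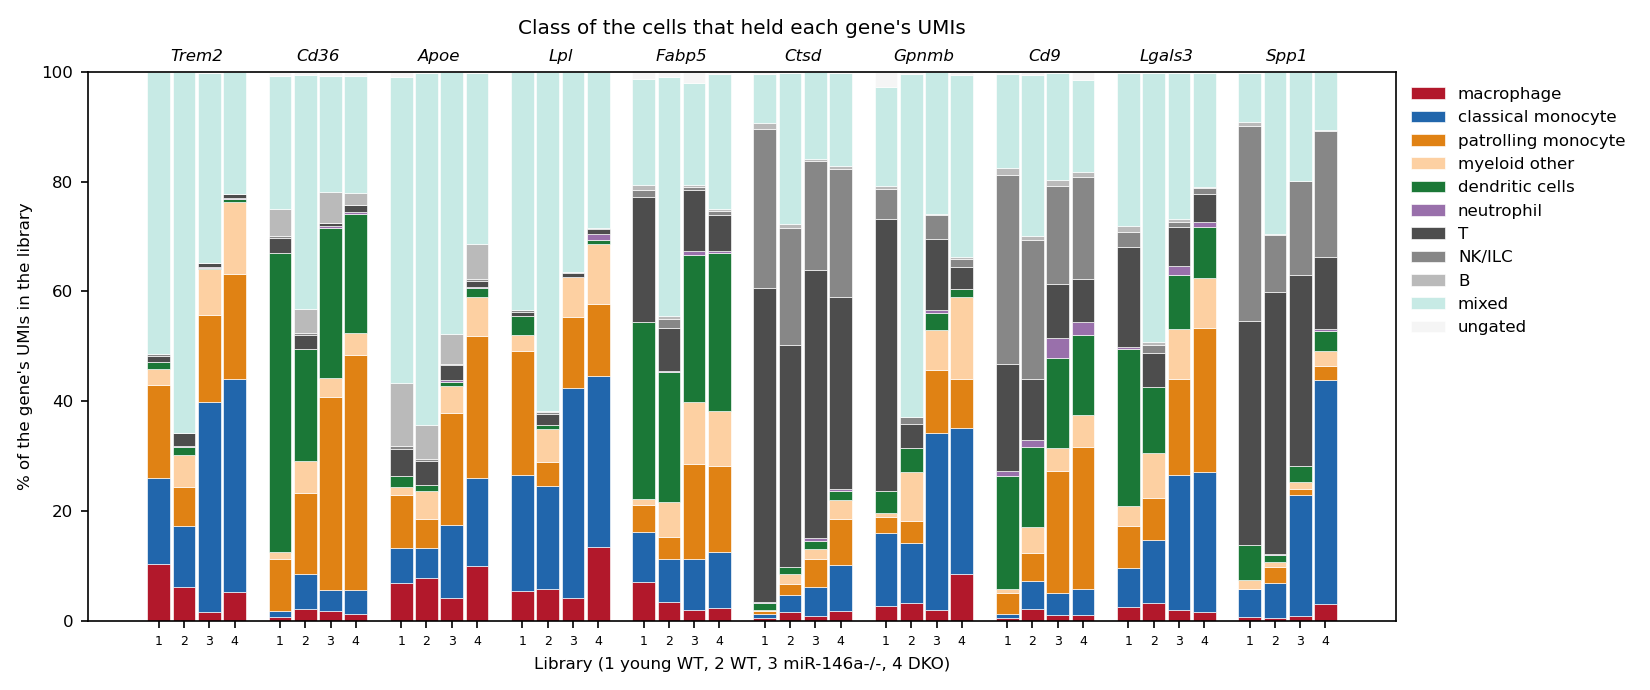
Percent of each gene's UMIs in kept cells (vertical axis) by cell class, as stacked bars for the 4 libraries in order. T cells held a large part of Ctsd in every library, and mixed droplets over 60% of Trem2, Apoe, Gpnmb and Lpl in WT.

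Markers of other liver cells were also read in macrophages. The cholangiocyte list (0, 2, 0 and 2 of 6 genes found) summed to 0, 5.19, 0 and 3.89 CPM, with Krt19 at 0 in all 4 libraries. The stellate list (0, 0, 1 and 2 of 8) summed to 0, 0, 2.64 and 3.89, with Col1a1 at 0 in all 4. The endothelial list (4, 4, 4 and 5 of 8) summed to 87.6, 74.3, 106 and 37.6 CPM, with Clec4g at 0 in young WT, WT and DKO. Its most abundant gene was Cdh5 in young WT at 43.8 CPM and Dnase1l3 in the other 3, at 41.5, 81.8 and 24.6 CPM.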

How the data were processed

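For each of 4 libraries the authors deposited UMI counts, not normalized, from Cell Ranger 7.0.1 on mm10. A cell was kept if it had between 600 and 6000 features and no more than 5% of its UMIs from mitochondrial genes. The upper limit and the exclusion of mixed droplets were the treatment of doublets, and no doublet caller was run. Pairs of libraries shared 109 to 150 barcodes. A cell joined the branch (T/NK/ILC, B or myeloid) with most markers found, at least 3, if no other branch had over 0.5 of that number, then the class with most of its 8 markers. UMIs were summed per class and library. Ratios used a prior of 0.5 UMI and exact conditional intervals, levels exact Poisson intervals. Cells were thinned to 2000 UMIs for shares. Likeness was Pearson r of log2(CPM + 5). The text names the 10 genes, genes of 5 pathway lists over 2-fold apart in macrophages (at most 6 a comparison), and the 5 genes most like Gpnmb and Trem2; others were chosen after their values were seen, and 1 gene that the rule names is not reported here. Members and lists were chosen with earlier results of these data known. Python 3.11.15, numpy 2.4.6, scipy 1.17.1, pandas 2.3.3 and, for TMM, R 4.3.3 with edgeR 4.0.16 were used. Scripts were tested on simulated data.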

Additional observations from a re-analysis of the deposited data

Results flagged for a closer look

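A few genes had ratios of opposite sign in 2 classes of the same libraries. For WT against young WT, the log2 ratio of Lpl was 1.65 in macrophages and -0.57 in patrolling monocytes, where 1 young WT cell held 36 of 96 UMIs and the level without it was 58.3 CPM against 61.5 in WT. Cd9 stood at 1.05 in macrophages and 1.11 in classical monocytes, against -0.55 in patrolling monocytes. For miR-146a-/- against WT, Trem2 stood at 0.47 in classical monocytes and -1.42 in macrophages. Cd9 stood at 0.35 in patrolling monocytes and -1.60 in classical monocytes. In each case the intervals lay on opposite sides of 0 and the difference between classes was not tested.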

How the results depend on the processing

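Of 330 log2 ratios of single genes recomputed in 11 settings, 259 stayed within the counting interval. The sign differed from the main value in 24, of which 22 were of ratios within 2-fold and 2 of the Spp1 ratio of DKO to miR-146a-/-. In macrophages, 2, 5 and 4 of the 10 genes were over 2-fold apart for WT against young WT, miR-146a-/- against WT and DKO against miR-146a-/-. For WT against young WT the count was 5 with TMM scaling, 6 at 1.5-fold, 5 with at least 4 markers and 1 with a lower limit of 200 features. Of alternatives chosen after seeing the data, it was 1 with droplets bearing lymphocyte markers taken in and 4 without the cell highest in each gene. It was 1 with monocytes, macrophages and other myeloid cells together. For miR-146a-/- against WT it was 3 with at least 4 markers and within 1.5 times the count in the other settings. For DKO against miR-146a-/- it was 8 at 1.5-fold, 7 with at least 4 markers and 0 with monocytes, macrophages and other myeloid cells together. Spp1 changed sign in that comparison, to -2.34 with at least 4 markers and -0.81 without its highest cell. Apart from TMM scaling in WT against young WT, shares of all genes are not given for the other settings. The counts there have no background beside them and are not read as results about the 10 genes. With at least 4 markers 15, 37, 15 and 44 macrophages were left; otherwise the cause was not tested. The number of genes highest in macrophages or monocytes was 7 with TMM scaling, with no upper limit on features and with at most 1 marker of another branch. No paired analysis was possible because each group had 1 library. Depth limits Trem2, Gpnmb, Cd36 and Spp1, which had under 40 UMIs in macrophages of at least 2 libraries.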
